A study of Homo sapiens with 8 samples.

Results

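First introns of protein-coding genes held 4783 of the 59106 accessible regions (peaks) called on chromosomes 1-22 of HepG2 cells, a share of 8.09% (95% interval 7.87 to 8.32%). A peak was counted as a first-intron peak where its summit, the base with the highest signal, lay in the first intron of the canonical transcript of a protein-coding gene of GENCODE 44, in no annotated exon and more than 1000 bp from the start of any annotated transcript. The same distance and exon rules gave 11309 peaks (19.1%) in later introns, which served as the comparison. Of the remaining peaks, 20621 lay within 1000 bp of a transcript start, 2319 lay farther away in exons and 20074 lay elsewhere.

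The bulk ATAC-seq experiment comprised 8 libraries of HepG2, a wild-type human line labelled as hepatocellular carcinoma of the liver, fixed with 0.1, 0.5, 1 or 5% formaldehyde (FA) and then either cryopreserved or flash-frozen. ATAC-seq marks open chromatin by the insertion of adapters with the transposase Tn5. The only peak list analysed here, of 60628 peaks on all chromosomes, came from the library fixed with 0.1% FA and cryopreserved, so that there was no replicate and no comparison between conditions. The cells were of 1 line, and the labels state that transposition reactions were pooled before DNA purification. Intervals given below are at the 95% level and cover counting error only, since peaks of 1 library are not replicates. Peaks overlapped the 1000 bp to either side of the canonical start for 11 of 13 hepatocyte lineage markers, with none at ALB and AFP, for 0 of 3 blood, 0 of 2 endothelial and 0 of 2 neuronal markers, and for 1 of 2 muscle markers (MYOD1, fold 5.79). On the longer gene lists used below, peaks at starts were found for 8 of 27 neuronal, 7 of 28 muscle and 3 of 27 blood genes. They were found for 27 of 30 liver transcription factors, 22 of 29 plasma protein genes and 12 of 29 genes of adult hepatocyte metabolism.

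The first intron begins at the end of the first exon and is on the whole the intron nearest to the promoter. First introns of many genes are long and hold enhancers, silencers or alternative promoters that act on the gene around them. In the liver, enhancers are bound by factors such as HNF4A, FOXA, CEBP and the nuclear receptors, together with broadly used factors such as AP-1 and TEAD, whereas CTCF is bound at sites that shape chromosome loops.

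Members were spread over 2692 genes, of which 1722 held 1 such peak. The 148 genes with 5 or more held 954 (19.9%) of them. The summits lay at a median of 17119 bp from the canonical start (quartiles 7154 and 40994.5, range 1023 to 749863 bp). The nearest annotated start of any transcript was closer, at a median of 7419 bp, since by definition it takes in starts of other transcripts and other genes. A second annotated gene covered 549 (11.5%) of the summits.

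Sequences at 8 summits show what the members look like. They are the strongest first-intron peaks of the gene lists used here that held at least 2 of the searched motifs within 50 bp of the summit. Each is the summit base and the 50 bases of hg38 to either side, read 5′ to 3′ on the plus strand, with the bases of the matched motifs in capitals.
SREBF1, chr17:17830889-17830989, plus strand: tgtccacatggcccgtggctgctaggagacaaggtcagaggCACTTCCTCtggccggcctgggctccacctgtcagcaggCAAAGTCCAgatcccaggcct
NR1I2, chr3:119795205-119795305, plus strand: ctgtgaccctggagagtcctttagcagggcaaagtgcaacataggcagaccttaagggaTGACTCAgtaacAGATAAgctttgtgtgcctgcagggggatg
HNF4A, chr20:44394605-44394705, plus strand: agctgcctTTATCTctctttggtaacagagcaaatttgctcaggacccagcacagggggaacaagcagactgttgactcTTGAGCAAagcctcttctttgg
RORA, chr15:60735606-60735706, plus strand: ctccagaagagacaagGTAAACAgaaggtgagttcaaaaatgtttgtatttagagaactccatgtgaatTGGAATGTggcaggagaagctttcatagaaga
ASS1, chr9:130450636-130450736, plus strand: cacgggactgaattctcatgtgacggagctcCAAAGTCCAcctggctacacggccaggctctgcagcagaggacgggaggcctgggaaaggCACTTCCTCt
CTNNA1, chr5:138775203-138775303, plus strand: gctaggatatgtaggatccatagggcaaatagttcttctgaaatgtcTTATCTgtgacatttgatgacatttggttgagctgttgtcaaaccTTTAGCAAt
SCARB1, chr12:124821851-124821951, plus strand: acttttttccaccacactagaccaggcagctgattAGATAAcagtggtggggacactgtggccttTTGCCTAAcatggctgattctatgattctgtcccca
LIPC, chr15:58467804-58467904, plus strand: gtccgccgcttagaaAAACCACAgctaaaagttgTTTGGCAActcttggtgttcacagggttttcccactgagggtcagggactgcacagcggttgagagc

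The capitals mark letters for PU.1 and HNF4A in SREBF1 and in ASS1, AP-1 and GATA in NR1I2, GATA and CEBP in HNF4A, CTNNA1 and SCARB1, FOXA and TEAD in RORA, and RUNX and CEBP in LIPC. SREBF1 encodes the transcription factor that switches on fatty acid synthesis, and its window sat 6.05 kb from the start at a fold enrichment of 33.0, against 10.7 at the start itself. Fold enrichment is the pileup at the summit over the local background as the peak caller gave it. NR1I2, the xenobiotic receptor PXR, had its summit at 13.2 kb with a fold of 24.3, against 6.59 at its start. That summit lay 3426 bp from another annotated start, within a second annotated gene. The HNF4A window lay 39.0 kb into the first intron but 1051 bp from the start of another annotated transcript, and that of RORA, a nuclear receptor, lay 494 kb from the canonical start and 1113 bp from another. ASS1, of the urea cycle, LIPC, the hepatic lipase, SCARB1, the receptor for high-density lipoprotein, and CTNNA1, the adhesion protein alpha-catenin, had folds of 16.4, 11.6, 14.7 and 14.8 at the windows shown.

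First introns were denser in peaks than later introns. There were 21.4 peaks per Mb of first intron (20.8 to 22.002, over 223.64 Mb) and 16.3 per Mb of later intron (16.04 to 16.6, over 692.283 Mb), a ratio of 1.31 (1.27 to 1.35). Only bases that a summit could have used were counted, that is bases outside exons, more than 1000 bp from any transcript start and with known sequence. First introns had the higher density on 22 of 22 chromosomes, and on 17 of them the interval of the ratio lay above 1. Without chromosomes 2, 14, 16, 17 and 20 the ratio was 1.32 (1.27 to 1.38). Over the 10923 genes that had both kinds of intron the pooled ratio was 1.34 (1.29 to 1.39). Of the 5148 such genes with a peak in either kind, 2042 were denser in the first intron and 3106 in later introns. Genes holding any first-intron peak held a median of 1, and a gene with 1 peak counts as denser wherever that peak falls. Later introns offer more bases, so this count of genes cannot tell which kind is denser per Mb.

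The density fell over the first introns of the transcript and changed less after that. It was 18.9 per Mb (18.2 to 19.6) in the second, 16.8 (15.99 to 17.6) in the third and 15.4 (14.4 to 16.3) in the fourth, which left no overlap between the intervals of the first 3 positions. The fifth intron (15.8), introns 6 to 10 (16.01, 15.4 to 16.6) and introns beyond the tenth (14.8, 14.2 to 15.4) stood closer to it, although the last of these lay just below introns 6 to 10.

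The difference was smaller at matched distances from the start. Between 1 and 2 kb from the canonical start, first introns held 35.2 peaks per Mb (31.3 to 39.5) and later introns 21.0 (14.5 to 29.5). At 5 to 10 kb the densities were 29.1 and 21.7, and at 20 to 50 kb they were 23.1 and 20.8. Beyond 100 kb the order was the opposite, with 8.47 per Mb in first introns and 12.2 in later introns. Weighting the bins by the bases of first introns gave 19.4 per Mb for later introns and a ratio of 1.10. Along the length of the intron itself there was little change, from 20.2 per Mb (18.9 to 21.7) in the fifth nearest the start to 22.3 (20.9 to 23.7) in the fifth farthest from it.

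**Figure D1:**
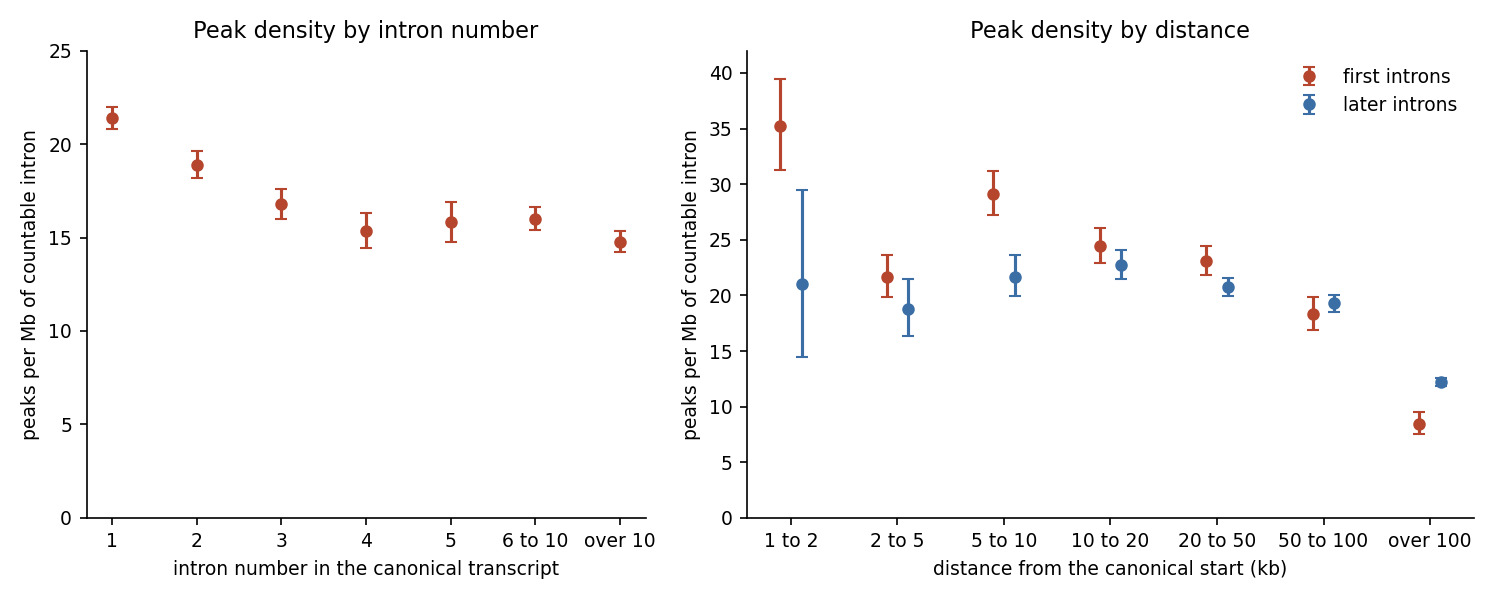
Peaks per Mb of countable intron (vertical axes) by intron number in the canonical transcript (left) and by distance from the canonical start in kb (right), with 95% Poisson intervals as bars. The density falls from 21.4 in first introns to 15.4 in the fourth intron, and beyond 100 kb first introns (8.47) lie below later introns (12.2).

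Long first introns were sparser. Density was 28.6 per Mb in first introns of 2 to 5 kb, 28.8 at 10 to 20 kb, 23.7 at 50 to 100 kb and 11.9 above 100 kb. Later introns of the same lengths had 20.2, 17.5, 15.5 and 10.4 per Mb, and the ratio was highest, 1.65 (1.51 to 1.80), at 10 to 20 kb and lowest, 1.15 (1.05 to 1.25), above 100 kb. Whether the first intron ended before or after the start codon mattered less, with 22.4 per Mb (21.4 to 23.6) in introns that ended before it and 20.9 (20.2 to 21.6) in the others.

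The excess in first introns was seen in genes whose own start was open. In genes with a peak overlapping the 1000 bp to either side of the canonical start, first introns held 27.4 peaks per Mb (26.5 to 28.3) and later introns 19.2 (18.8 to 19.7), a ratio of 1.42 (1.37 to 1.48). In genes without such a peak the densities were 11.7 and 11.4 per Mb and the ratio was 1.03 (0.961 to 1.11). The ratio with a start peak was 1.38 times the ratio without (1.27 to 1.49, from the counting errors of the 4 counts). Put the other way, first introns were 2.33 times as dense (2.18 to 2.50) in genes with an open start as in the others, and later introns 1.69 times (1.62 to 1.77). For first introns this pooled difference varied with distance. At 2 to 5 kb they had 21.2 per Mb with a start peak and 22.7 without. In the other bins those of genes with a start peak were denser, with 26.3 against 7.08 at 50 to 100 kb.

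At matched distances the order of first and later introns differed between these 2 groups of genes. In genes with a start peak, first introns exceeded later ones in each bin up to 100 kb, with 34.4 against 22.7 per Mb at 5 to 10 kb (ratio 1.52, 1.33 to 1.73) and 28.8 against 22.5 at 20 to 50 kb (1.28, 1.18 to 1.38), although at 1 to 2 kb the interval of the ratio included 1. In genes without one, first introns were the sparser kind in each bin beyond 2 kb, with 11.9 against 16.7 per Mb at 20 to 50 kb (0.716, 0.612 to 0.836) and 7.08 against 14.5 at 50 to 100 kb (0.488, 0.391 to 0.604). For 2 to 5 kb and 5 to 10 kb the intervals of these ratios included 1. Over all bins, weighted by the first-intron bases of each group, the ratios were 1.29 and 0.753. This split by distance and start together was chosen after the values were seen.

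**Figure D2:**
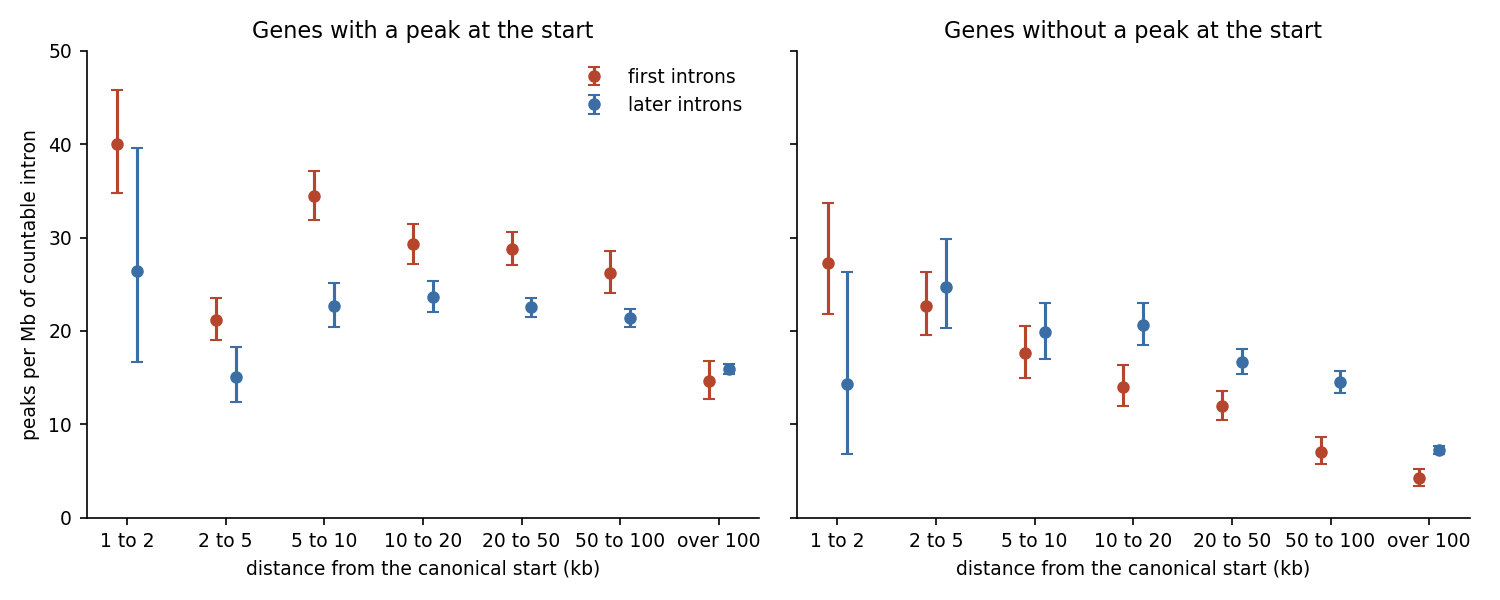
Peaks per Mb of countable intron (vertical axis) by distance from the canonical start in kb, for genes with (left) and without (right) a peak within 1000 bp of that start, with 95% Poisson intervals as bars. First introns lie above later introns up to 100 kb on the left (34.4 against 22.7 at 5 to 10 kb), and below them in each bin beyond 2 kb on the right (7.08 against 14.5 at 50 to 100 kb).

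The height of the peak at the start did not order the first introns in the same way. Over 4 equal groups of genes by fold at the start, from the lowest (4.13 to 13.4) to the highest (23.2 to 48.5), first-intron density was 27.1, 31.3, 27.7 and 22.8 per Mb. The highest group thus had the lowest density (21.1 to 24.6).

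First-intron peaks were much like later-intron peaks in height and base composition, and both differed from peaks at starts. The median fold was 9.76 (9.62 to 9.92) in first introns and 9.84 (9.70 to 9.96) in later introns, with intervals that overlapped, against 13.6 within 1000 bp of starts. Median GC content within 100 bp of the summit was 49.3, 48.8 and 65.7%, and the median ratio of observed to expected CpG was 0.206, 0.203 and 0.766. First introns as a whole had 41.6% GC and later introns 40.7%, so that the median summit in both stood above the average of that kind of intron. The GC content of sequence beside the summits was not computed. First-intron peaks were slightly wider (median 167 bp, 165 to 170, against 156 bp, 154 to 157).

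The number of fragments at the summit, solved from fold and p-value, was a median of 15 in first introns and 13 in later introns, and the local background was 0.533 and 0.366 fragments. At most 10 fragments supported 28.3% of first-intron and 36.3% of later-intron peaks. The total number of reads of the library is not part of the peak list, so depth enters here only through these fragments. Background moved with the density, and its part in the difference was not tested.

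Motifs set first-intron peaks apart from later ones mainly in CTCF. Letters of 19 motifs were searched on both strands within 50 bp of each summit and, as background, in windows of the same length 2000 bp to either side. CTCF letters occurred in 75 first-intron peaks (1.57%, 1.24 to 1.962%) and in 3.33% of later-intron peaks (3.01 to 3.68%), a ratio of 0.470 (0.362 to 0.604), against 3.14% of all peaks on chromosomes 1-22. The share in first introns was the lower of the pair in each of the 7 distance bins, for example 1.48 against 3.22% at 20 to 50 kb and 1.12 against 3.94% at 50 to 100 kb. The intervals of the pair overlapped at 1 to 2 kb, at 10 to 20 kb and over 100 kb. At 1 to 2 kb and over 100 kb only 4 first-intron peaks each held the letters. The share in first introns was lower both in genes with a peak at the start (ratio 0.505) and in genes without one (0.421).

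HNF4A, FOXA and CEBP letters stood above the background windows, and the intervals of their ratios between first and later introns included 1. HNF4A (CAAAGTCCA), the nuclear receptor that governs hepatocyte identity, was matched in 99 first-intron peaks (2.07%, 1.69 to 2.51%), 19.8 times the 0.105% of background windows. Later-intron peaks had 1.698% (1.47 to 1.95%) and all peaks 1.41%. FOXA (TGTTTAC), pioneer factors of the liver, reached 6.0% against 1.42% in the background, 6.44% in later introns and 4.79% of all peaks. CEBP (TTGCNNAA) reached 8.49%, with 4.79% in the background, 8.48% in later introns and 6.28% of all peaks.

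AP-1 (TGANTCA), dimers of JUN and FOS proteins, was found in 7.71% of first-intron peaks (6.97 to 8.51%), 6.71% of later-intron peaks (6.26 to 7.19%), 5.58% of all peaks and 2.84% of background windows. The ratio of first to later introns was 1.15 (1.01 to 1.303). TEAD (ACATTCCA) was found in 1.53, 1.67, 1.16 and 0.397% in the same order. The letters AGATAA, bound by factors of the GATA family, had 6.02% against 5.85% in the background (6.36% in later introns, 4.55% of all peaks). ONECUT (ATCAATA) had 0.774% against 1.17% (0.946% and 0.645%). Neither showed an excess over the background. The background windows of all motifs were not matched to the summits in GC content, and the part of base composition was not tested.

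PU.1 (GAGGAAGTG), the letters of an ETS factor of blood cells, appeared in 27 first-intron peaks, 0.564% (0.372 to 0.820%) against 0.256% in later introns, 0.296% of all peaks and 0.230% in the background. The ratio to later introns was 2.20 (1.25 to 3.85), and with 19 motifs compared and few matches it is given as a description. Promoter motifs were rare in first introns. SP/KLF (GGGGCGGGG) had 0.962% against 4.60% of all peaks and 0.760% in later introns, and NRF1 had 0.0418% against 1.63% of all peaks. Among the rest, RUNX (TGTGGTTT) was at 1.07% (0.807% of all peaks), NFY (AGCCAATC) at 0.376% (1.12%), ETS/GABPA (CCGGAAGT) at 0.230% (1.24%) and YY1 (AAGATGGCG) at 0.0209% (0.266%). HNF1, NFI, the NR DR1 repeat and MEF2 were matched in at most 2 first-intron peaks each. None of the searched letters was present in 67.2% of first-intron peaks, and 213 (4.45%) held letters of 2 or more motifs. A match in overlapping letters was counted for each motif.

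**Figure D3:**
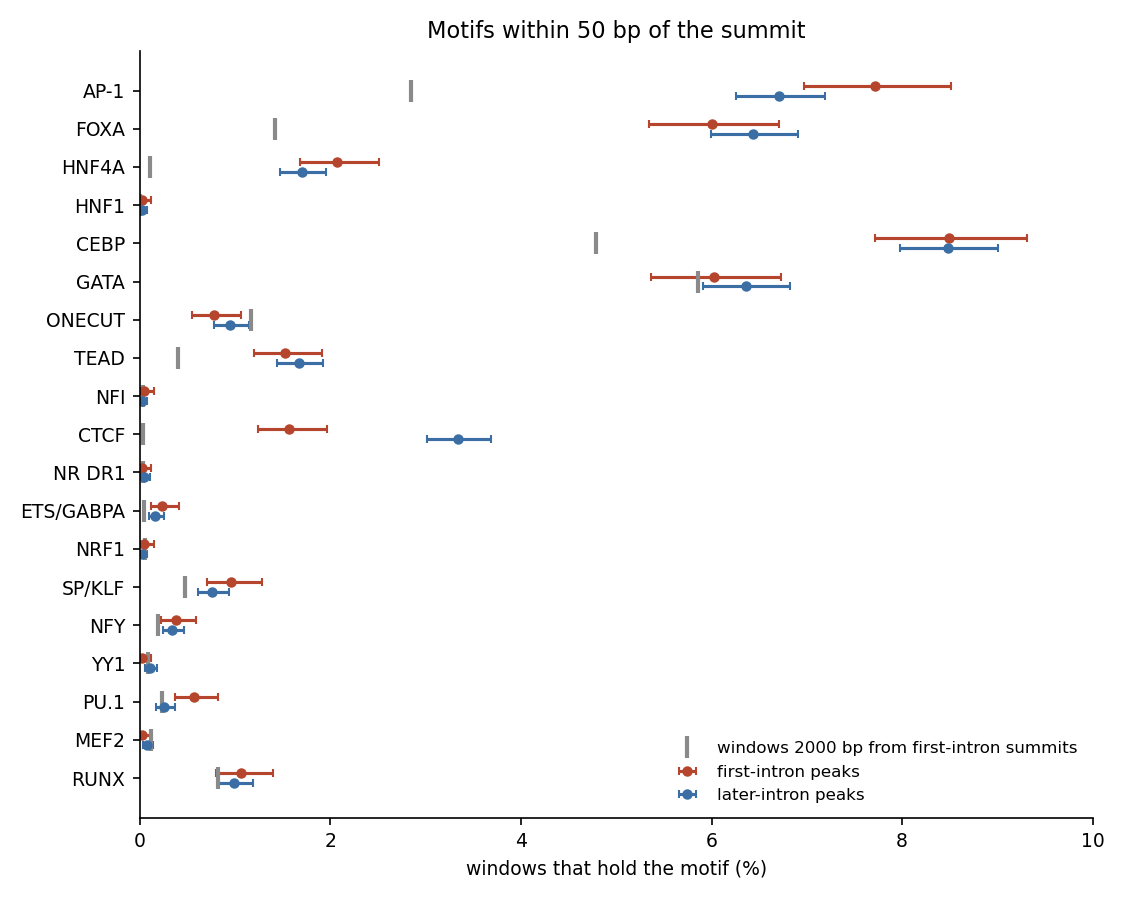
Share of summit windows that hold each motif (horizontal axis, %) for first-intron and later-intron peaks, with exact 95% binomial intervals as bars, and for windows 2000 bp from first-intron summits (grey ticks). Only CTCF, AP-1 and PU.1 have a ratio of first to later introns whose interval leaves out 1, and CTCF shows the widest gap (1.57 against 3.33%).

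Of 12539 genes with countable first-intron bases (18077 protein-coding genes had a first intron), 2758 had a peak there, a background of 22% (21.3 to 22.7%). These are more genes than the 2692 above because a summit in the first introns of 2 overlapping genes is here counted for both. The share rose with the countable length from 2.61% under 2 kb to 64.0% at 50 to 100 kb. A start peak was present in 2050 (74.3%, 72.7 to 75.95%) of the genes with a first-intron peak and in 64.9% of all countable genes. Where both were present and the summit was assigned to the gene (2014 genes), the strongest first-intron peak had the higher fold in 603 (29.9%), and the median folds were 11.6 in the first intron and 16.7 at the start.

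Genes of lipid and sterol metabolism had first-intron peaks at a share above that of genes with equally long first introns, but the gap depended on the distance kept from transcript starts. Of 24 countable genes on this list 13 had one, 54.2% (32.8 to 74.4%), against 26.5% of all genes at the same lengths. With more than 2500 bp in place of 1000 bp it was 9 of 23, 39.1% (19.7 to 61.5%), and the interval included the 24.1% at the same lengths. SREBF1 had the strongest, described above. CD36, the fatty acid transporter, had a fold of 27.2 at 4.41 kb, LPIN2, a phosphatidate phosphatase, 20.4 at 28.1 kb, and ACACA, which makes malonyl-CoA, 16.1 at 33.1 kb. The LPIN2 summit lay only 1125 bp from another annotated start, within a second annotated gene. That of ACACA lay 2294 bp from another start. The cholesterol exporter ABCA1 had a fold of 15.9, PNPLA3, a lipid droplet protein, 12.2, and DGAT2, of triglyceride synthesis, 10.5. The list was 1 of 14 compared, and at 1000 bp it was the only one whose interval left out the share at the same lengths.

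SCARB1 stood out on this list by number, with 9 peaks in 43.96 kb of countable first intron, or 205 per Mb. Their folds ran from 5.35 to 14.7, and they lay between 9.95 and 41.96 kb from the start, which itself had a fold of 18.9. LIPC held 6, with folds from 7.30 to 14.5, and had no peak at its canonical start. Its strongest lay 1816 bp from another annotated start, where other annotated genes covered the summit. Among the 11 genes of the list without one was SREBF2, which controls sterol synthesis and had a fold of 17.4 at its start.

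Among 21 countable liver transcription factors, 8 had a first-intron peak (38.1%, 18.1 to 61.6%, against 23.6% at the same lengths). HNF4A held 3, with folds of 27.4 at 15.1 kb, 20.4 and 9.82. RORA had a fold of 24.7 at its strongest, NR1I2 24.3 and RXRA, the partner of many nuclear receptors, 20.1 at 38.4 kb. For RORA, NR1I2 and RXRA the fold at the start was far smaller, at 6.80, 6.59 and 8.13. NR1H4, the bile acid receptor FXR, held 3 peaks with folds from 8.0 to 9.61 and had none at its canonical start.

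Of 21 countable genes of adult hepatocyte metabolism, 6 had a first-intron peak (28.6%, 11.3 to 52.2%, against 16.5%). In 4 of the 6 the canonical start had no peak. Among them were SLC10A1, the bile acid importer (fold 17.9 at 4.04 kb), and FBP1, of gluconeogenesis (16.4 at 16.045 kb). ASS1 and CYP27A1, a sterol hydroxylase of bile acid synthesis, had both, with CYP27A1 at 6.11 in the first intron and 16.9 at the start. CPS1, GYS2 and SLCO1B1, with 15.7, 23.3 and 9.32 kb of countable first intron, had neither.

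Plasma protein genes have short first introns, and 2 of 12 countable ones had a peak there (16.7%, 2.09 to 48.4%, against 4.44%). CP, the copper carrier ceruloplasmin, had a fold of 20.4 at 6.92 kb, above the 6.49 at its start. AHSG, the secreted protein fetuin-A, had 6.60 in the intron, at a summit that a second annotated gene covered, and 17.8 at the start. On the list of fetal liver and hepatoblastoma genes, 3 of 10 had one (30.0%, 6.67 to 65.2%, against 13.1%). They were PEG10 with a fold of 14.4, the stem cell factor SALL4 with 14.2 and LGR5 with 10.6. The SALL4 peak held CTCF letters. Its summit lay 1275 bp from an annotated start, and that of PEG10 1526 bp. With more than 2500 bp in place of 1000 bp the list had 1 of 3 (33.3%, 0.840 to 90.6%, against 26.3%).

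Insulin and growth signalling genes and cytoskeleton and adhesion genes had long first introns and high shares. The former had 11 of 22 (50.0%, 28.2 to 71.8%, against 40.1% at the same lengths), among them GAB1 (19.3), IGF1R (16.97) and EGFR (16.1), and EGFR held 8 in 118 kb. The latter had 14 of 23 (60.9%, 38.5 to 80.3%, against 41.2%), with folds of 24.6 at CTNND1, which encodes p120-catenin, 20.3 at the laminin chain LAMC1 and 19.3 at the collagen receptor subunit ITGA2. Other annotated genes covered the CTNND1 summit. The cytoskeleton and adhesion genes together held 45 peaks, 65.0 per Mb.

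Stress and immediate early genes had 3 of 14 (21.4%, against 15.3%), which were CDKN1A, the cell cycle inhibitor p21 (13.8), EGR1 (6.02) and KLF6 (5.28). The EGR1 and KLF6 summits lay only 1125 and 1021 bp from an annotated start. With more than 2500 bp in place of 1000 bp the list had 1 of 9 (11.1%, 0.281 to 48.2%, against 15.1%). No housekeeping gene of 14 had a first-intron peak, although all 14 had a peak at the start. This allows a share of up to 21.4% by the limit of 3 counts and up to 23.2% by the exact interval. Both include the 14.4% at the same lengths.

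For genes of other tissues each interval included the share at the same lengths. Of 17 muscle genes none had a first-intron peak, against 17.4% at the same lengths. This allows up to 17.6% by the limit of 3 counts and up to 19.5% by the exact interval. Of 13 blood genes 1 had such a peak (7.69%, against 8.08%). Neuronal genes had 5 of 17 (29.4%, 10.3 to 56.0%, against 39.4%) and 6 peaks in 1.81 Mb, or 3.31 per Mb, the lowest density of the lists with any. SNAP25, of synaptic vesicle fusion, and CAMK2A, a synaptic kinase, nevertheless carried folds of 32.4 and 27.1 with no peak at the canonical start, and a second annotated gene covered the SNAP25 summit. RBFOX3, a neuronal splicing factor, had 11.1 and the microtubule protein MAP2 8.87. On the list of other liver cells 3 of 16 had one (18.8%, against 17.2%), among them the pericyte receptor PDGFRB (10.0) and the chloride channel CFTR (5.95), neither with a peak at the canonical start.

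**Figure D4:**
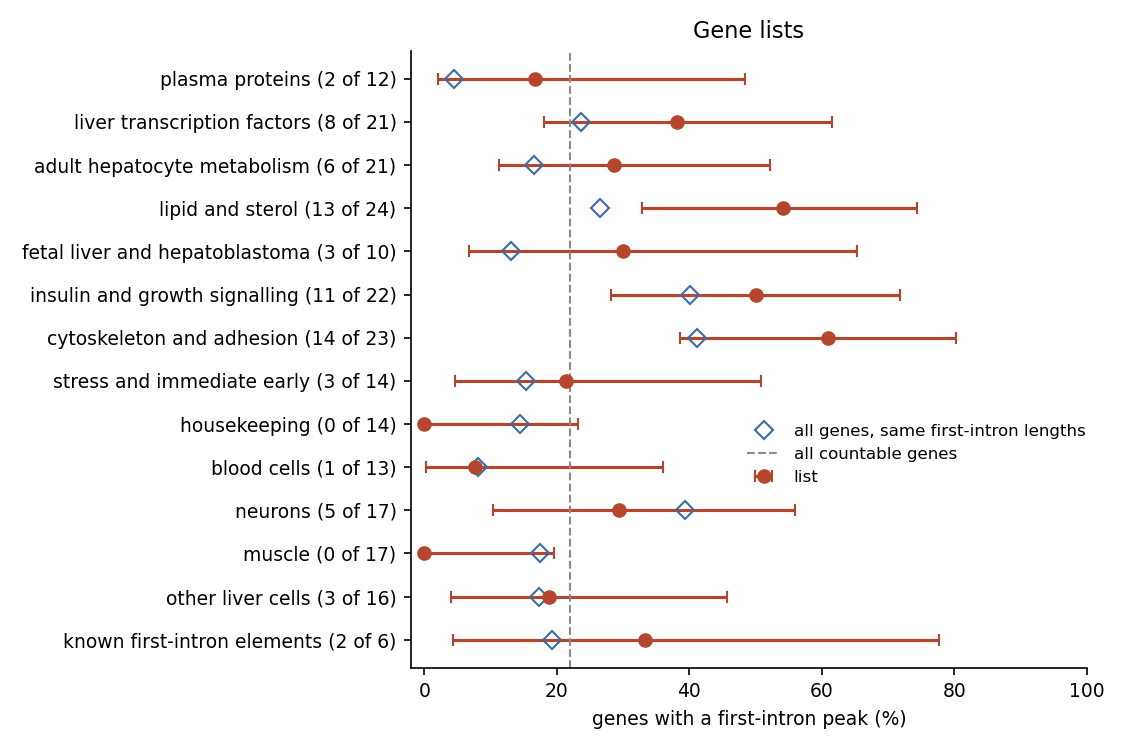
Share of genes with a first-intron peak on each list (horizontal axis, %; red points with exact 95% binomial intervals), the share of all genes with the same first-intron lengths (blue diamonds) and of all countable genes (dashed line, 22%), with counts in brackets. The lipid and sterol list, at 54.2%, is the only one whose interval leaves out its diamond.

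Genes known for regulatory elements in their first intron were looked up as a further list, and 2 of 6 countable ones had a peak there (33.3%, 4.33 to 77.7%, against 19.3% at the same lengths). CD4, whose first intron holds a silencer, had a fold of 19.1 at 3.20 kb, although its start had no peak and the other 12 blood genes had no first-intron peak. ADA, with a T-cell enhancer there, TEK and KDR, with endothelial enhancers, and ACTA2, with a smooth muscle element, had none. APOE, KRT18, COL1A1, ACTB and RUNX1 had no countable bases.

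The 10 highest folds in first introns were 31.9 to 35.5. They were found in NCOA3, a coactivator of nuclear receptors (35.5 at 74.9 kb), TWIST2, a transcription factor of mesenchyme (34.3 at 16.3 kb), PDGFC, a growth factor (33.5), TMC7 (33.4), SREBF1 (33.0), CFAP210 (32.9), SNAP25 (32.4), BSN, a presynaptic scaffold protein (32.3), LPP, an adhesion protein (32.1), and ZNF385C (31.9). TWIST2, SNAP25 and ZNF385C had no peak at the canonical start. At NCOA3 the start was nearly as high (32.6), whereas at PDGFC, BSN and LPP it was at 15.4, 14.6 and 13.4. AP-1 letters lay under the TWIST2 and TMC7 summits and FOXA letters under that of LPP. The NCOA3 peak spanned chr20:47576681-47576958 and that of TWIST2 chr2:238864304-238864566. SNAP25 also lies on chromosome 20, CFAP210 on 2, TMC7 on 16, SREBF1 and ZNF385C on 17, BSN and LPP on 3 and PDGFC on 4. Copy number of the chromosomes is not part of the peak list, and its part in these ranks was not tested.

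CMIP, an adaptor protein gene, held the most first-intron peaks, 17 in 149.96 kb of countable bases or 113 per Mb, with folds from 6.69 to 20.05. It lies on chromosome 16, where first introns held 36.2 peaks per Mb. FMNL2, an actin-nucleating formin, and CMSS1 held 15 each, CMTM8 and AGAP1 12 each, ABTB2, the Notch coactivator MAML2 and the heparan sulfate polymerase EXT1 11 each, and the receptor kinase GRK5 10. Each of these genes had a peak at its start, with folds from 11.1 (CMTM8) to 27.6 (AGAP1). In density SCARB1, with its 9, stood above all of them, and EXT1 was lowest at 40.7 per Mb. The peaks did not gather at the start of the gene. In CMIP they ran from 3.88 to 153 kb and in FMNL2 from 7.70 to 173 kb.

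**Figure D5:**
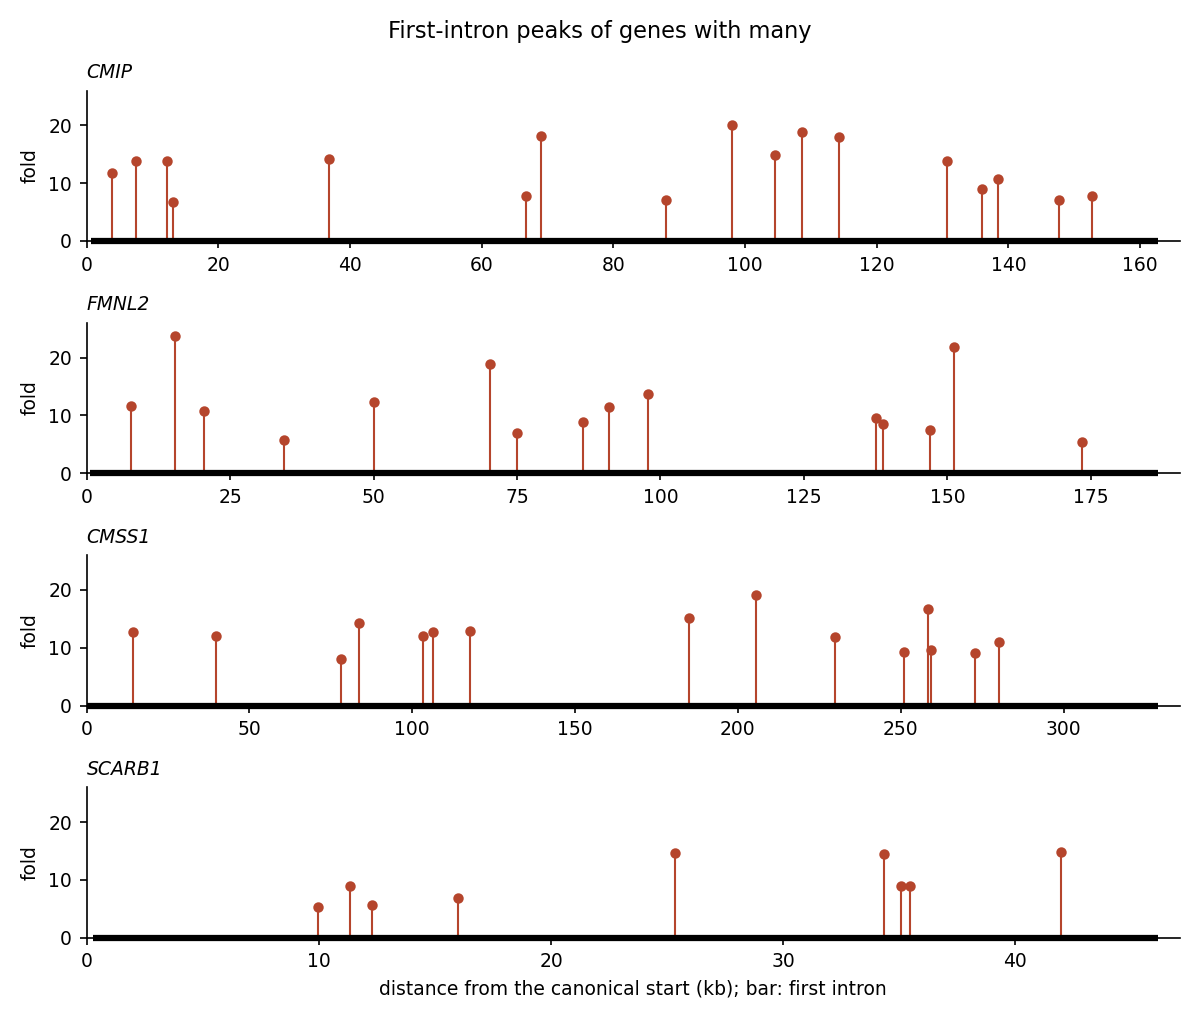
Fold enrichment at each first-intron peak (vertical axes) by distance from the canonical start in kb (horizontal axes) in CMIP, FMNL2, CMSS1 and SCARB1, where each stem is 1 peak and the black bar is the first intron. Peaks are spread along the introns, and the highest fold is 20.05 in CMIP, 23.7 in FMNL2, 19.05 in CMSS1 and 14.7 in SCARB1.

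The limit of 1000 bp to the nearest annotated start decided membership for peaks in BFAR (1002 bp, fold 12.98), GREB1L (1004 bp, 6.80) and PRLR (1005 bp, 8.28), just inside it, and in DCHS1 (1000 bp, 8.13), JADE2 (998 bp, 12.6) and CYFIP1 (998 bp, 6.43), just outside.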

How the data were processed

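Bulk ATAC-seq of HepG2 had been performed on 8 libraries, of which 1 peak list was analysed. The authors ran the mapping pipeline of snakePipes, with cutadapt for trimming, Bowtie2 alignment to GRCh38 (hg38) and removal of duplicates, and then called peaks separately with MACS2 at its standard parameters. The records name bcl2fastq and deepTools 3.5.5, and no MACS2 version was found in them. The deposited list gives per peak a score, a fold enrichment (a ratio at the summit over local background), the −log10 p-value, the −log10 q-value and the summit position.

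The members, gene lists and motifs were chosen with earlier results of these data known. Summits and bases were placed on GENCODE 44 (19111 protein-coding genes on chromosomes 1-22), and where introns overlapped, first introns took precedence. Densities carry exact Poisson, shares exact binomial (Clopper-Pearson) and ratios exact conditional intervals at 95%. The comparison of 2 ratios used a normal approximation on the log scale. PCR copies without molecular identifiers are not independent, so intervals and limits for counts of 0 (3 counts) cover counting error only. No test was possible with 1 library. Fragments at summits were solved from fold and −log10 p, which was added with the values already known. They were whole within 0.01 for 99.7% of peaks, and 1246 peaks had both solutions whole. On simulated data, placement matched a direct comparison at 4000 of 4000 positions, and 2965 of 2966 summits returned their fragments. Named genes were those of the 10 highest folds, the 10 genes with the most members, up to 4 per list by fold, the known elements, up to 8 liver genes without a start peak and those at the limit; others were chosen after their values were seen, and some that the rule gives are not reported here. Soft-masked shares were not computed, since the genome used here is in capitals. Alternatives were other distances (500 and 2500 bp), q limits, transcript models, windows and gene subsets. The software was matplotlib 3.10.9, pandas 2.3.3, scipy 1.17.1 and numpy 2.4.6 under Python 3.11.15.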

Additional observations from a re-analysis of the deposited data

Results flagged for a closer look

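Chromosome X lies outside the autosomes used for the comparisons, and it held 82 first-intron peaks by the same criteria. Their density was 8.19 per Mb (6.51 to 10.2), against 6.26 per Mb in later introns of the chromosome. The ratio was 1.31 (0.995 to 1.71).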

How the results depend on the processing

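Of 126 recomputed values, 95 stayed within the counting interval of the value reported, or within 1.5 times for counts, 30 moved out of it and 1 reversed. The number of first-intron peaks was 1703 at a −log10 q of at least 20 and 9731 with first introns of any transcript. The density ratio reversed to 0.753 in genes without a start peak within distance bins, an alternative chosen after seeing the data. In the others it was above 1, with 1.38 with a distance of 500 bp, 1.41 at a −log10 q of at least 20, 1.10 within distance bins, 1.42 in genes with a start peak and 1.03 in genes without. At −log10 q limits of 5 and 20 the median fold was 9.99 and 15.8 in first introns and 10.1 and 16.2 in later introns, and the ratio of medians in peak width groups 2, 3 and 4 of 5 was 0.964, 0.928 and 0.961. The share of genes was 24.6% with a distance of 2500 bp, and the lipid and sterol list compares with 26.5% at the same lengths. With 2500 bp that list fell to 39.1% (19.7 to 61.5%, against 24.1% at the same lengths), so that its interval no longer left out the comparison, and with 500 bp the plasma protein list, 4 of 15 (26.7%, 7.79 to 55.1%), left out its own (5.82%). Within 25 bp of the summit, a shorter window by construction, the shares were 4.08% for AP-1, 3.28% for FOXA, 0.920% for HNF4A, 3.95% for CEBP, 2.91% for GATA, 0.251% for ONECUT, 0.690% for TEAD, 0.523% for CTCF, 0.397% for SP/KLF, 0.125% for NFY, 0.188% for PU.1, 0 for MEF2 and 0.544% for RUNX. FOXA stood at 5.57 times windows 1000 bp away. The cause of the other moves was not tested. Alternatives for CTCF, chosen after seeing the data, left its ratio of first to later introns between 0.367 and 0.505. No paired analysis was possible because only 1 library has a peak list here, and for the same reason no replicate could be left out. The number of fragments at a summit (median 15) limits how small a peak could be called.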
